A study of Homo sapiens with 12 samples.

Results

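The genes described here build, fold, export and destroy proteins of the endoplasmic reticulum (ER). They were 60 listed symbols, and 33 of them had a named row among the 14884 genes tested. The other 27 are not analysed here: HSPA5, HSP90B1, HSPA13, DNAJB9, DNAJB11, DNAJC3, DNAJC10, PDIA3, PDIA4, PDIA5, PDIA6, P4HB, SYVN1, EDEM1, EDEM2, EDEM3, HERPUD1, OS9, SEC61G, SSR1, SSR2, SSR3, SSR4, SRPRB, KDELR2, SEC24D and LMAN1. By role, the measured genes comprised 7 chaperones and cochaperones, 2 disulfide enzymes, 4 genes of ER-associated degradation, 3 stress sensors with the transcription factor XBP1, 13 genes of targeting, translocation and signal peptide removal, and 3 genes of export and retrieval.

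The cells were MM.1S, a human myeloma line in long use that responds to glucocorticoids, profiled after 24 h on 12 Affymetrix arrays, 3 for each of 4 groups. The Control group had vehicle only. The PD group had 500 nM pomalidomide, which recruits IKZF1 and IKZF3 to the cereblon ubiquitin ligase, and 10 nM dexamethasone, a synthetic glucocorticoid. The FPD group had the same doses of both and 1 nM filanesib, an inhibitor of the mitotic kinesin KIF11. For the F group the title and shared protocol carry the letter F alone, while its source and treatment labels list 1 nM filanesib with 10 nM dexamethasone. FKBP5, a glucocorticoid-induced gene, lay at 5.57 ± 0.03 in Control, 5.74 ± 0.30 in F, 7.06 ± 0.12 in PD and 7.25 ± 0.04 in FPD (mean log2 ± SD, n = 3). The F group therefore keeps its letter below. Whether the 3 arrays of each group stem from independent cultures is not in the labels, and the p-values cover array-to-array variation that may be technical.

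All levels are deposited log2 values made with RMA, which subtracts background, gives every array the same distribution of probe values and combines the probes of each row. The median of an array was 4.23 to 4.27, and r within groups was 0.988 to 0.992. Of the plasma cell markers, SDC1 stayed at 10.14 to 10.25 on all arrays, and the mean of the 6 measured of 9 listed markers lay at 9.34 to 9.43 in Control and 9.002 to 9.10 in PD, with IRF4 and SLAMF7 called lower. The mean of 4 T cell markers lay at 5.05 to 5.11 in Control and 5.16 to 5.22 in PD, that of 5 myeloid markers at 3.76 to 3.79 and 3.62 to 3.77, that of 4 stromal and epithelial markers at 5.05 to 5.19 and 5.09 to 5.40, and that of 3 mature B cell markers, of which CR2 fell, at 5.24 to 5.36 and 4.77 to 4.95. The part of these marker changes in the results below was not tested. In bulk RNA, fewer cells of a kind and less RNA per cell cannot be told apart.

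Plasma cells and the myelomas derived from them secrete large amounts of immunoglobulin. Nascent chains are brought to the ER by the signal recognition particle, threaded through the SEC61 channel, trimmed by the signal peptidase, folded by chaperones and oxidised by disulfide enzymes. Chains that fail are pulled back into the cytosol and degraded, and the sensors IRE1 (encoded by ERN1), PERK (encoded by EIF2AK3) and ATF6 adjust this capacity. ATF6 and XBP1 act on many of these genes through ER stress response elements in their promoters.

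RefSeq promoter windows of assembly GRCh38.p14, from 250 bases before to 50 bases after a gene's start, were found for 29 of the 33 genes. The classical element, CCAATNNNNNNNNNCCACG on either strand, lay in 5 of these 29 (17.2%), against 0.0916% of 27305 genes with such a window. Its shorter variant, ATTGGNCCACG, lay in 2 (6.9%), against 0.0696%. A match of letters is a description of the window and does not show binding. The genes were listed for their role in the ER, so these shares describe that list only. The search fixed the letters of both ends, and their exact match in each stretch was set in advance. The 7 promoters that held either element are printed 5′ to 3′ on the gene's strand, with the 5-base ends of each element in capitals:

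CALR (chr19:12938369-12938417, plus strand): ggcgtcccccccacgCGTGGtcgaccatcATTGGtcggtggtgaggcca
CANX (chr5:179698763-179698811, plus strand): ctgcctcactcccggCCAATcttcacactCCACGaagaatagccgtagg
CRELD2 (chr22:49918539-49918587, plus strand): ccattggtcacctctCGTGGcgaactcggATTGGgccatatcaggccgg
ERO1B (chr1:236282168-236282208, minus strand): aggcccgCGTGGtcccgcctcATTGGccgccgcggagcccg
XBP1 (chr22:28800588-28800636, minus strand): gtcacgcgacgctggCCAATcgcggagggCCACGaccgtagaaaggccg
SDF2L1 (chr22:21642099-21642139, plus strand): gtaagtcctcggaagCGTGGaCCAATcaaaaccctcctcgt
HYOU1 (chr11:119057259-119057405, minus strand): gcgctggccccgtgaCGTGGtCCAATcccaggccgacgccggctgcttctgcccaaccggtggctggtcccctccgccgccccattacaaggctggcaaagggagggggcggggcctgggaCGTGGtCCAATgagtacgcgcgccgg

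CALR, CANX, CRELD2, ERO1B and XBP1 held the classical element, and SDF2L1 and HYOU1 the variant, which HYOU1 held at 2 places. The core TGACGTGG lay in HYOU1, where it overlapped the variant, and in SEC62 and KDELR3 (10.3% of the 29, against 0.927% of all genes). The E box CACGTG lay in CANX, SEC11C and MZB1 (10.3%, against 8.77%). None of the 29 held the glucocorticoid receptor palindrome GNACANNNTGTNC, which 0.48% of all genes held, and that says only that these letters are not in these windows.

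The response of ER genes to pomalidomide with dexamethasone was measured by comparing PD with Control. The changes were downward: 10 of the 33 genes fell (30.3%, beside 8.63% of all genes tested) and none rose (beside 6.84%), at an adjusted p under 0.05 from limma with Benjamini-Hochberg adjustment over all genes. At an unadjusted p under 0.05, 13 were lower and 3 higher. Of all 14884 genes tested, 2163 were lower and 1784 higher at that threshold (26.5% in either direction). All of the 33 genes but ERO1B and KDELR3 lay well above the array medians. The shares over all genes, here and below, are not matched for level. The 33 genes were listed with earlier results of these data known, so their shares describe that list only. The degradation adaptor SEL1L fell most, followed by SPCS2, ERO1A, SEC11C, SDF2L1, SPCS3, CALR, MANF, ATF6 and HYOU1. By role these were 4 of 7 chaperones and cochaperones, 1 of 2 disulfide enzymes, 1 of 4 degradation genes, 1 of 4 sensors and factors, 3 of 13 targeting and translocation genes and 0 of 3 export and retrieval genes. The median log2 difference was -0.09, beside -0.003 over all genes tested, and 21 of the 33 differences were negative (7537 of 14884 over all genes). The 3 PD arrays lay wholly below the 3 Control arrays for 13 genes (15.8% of all genes did so) and wholly above for 5 (13.2% of all genes). The number of calls in each direction varied with the scaling: quantile normalizing the arrays again gave 2 higher and 7 lower. Leaving out any 1 of the 6 arrays left 5 or 6 lower (5 without Control replicate 1, 2 or 3 or PD replicate 1, and 6 without PD replicate 2 or 3), and only SEL1L and ERO1A passed in all 6 such fits. Without Control replicate 3, 1 gene was also called higher.

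**Figure D1:**
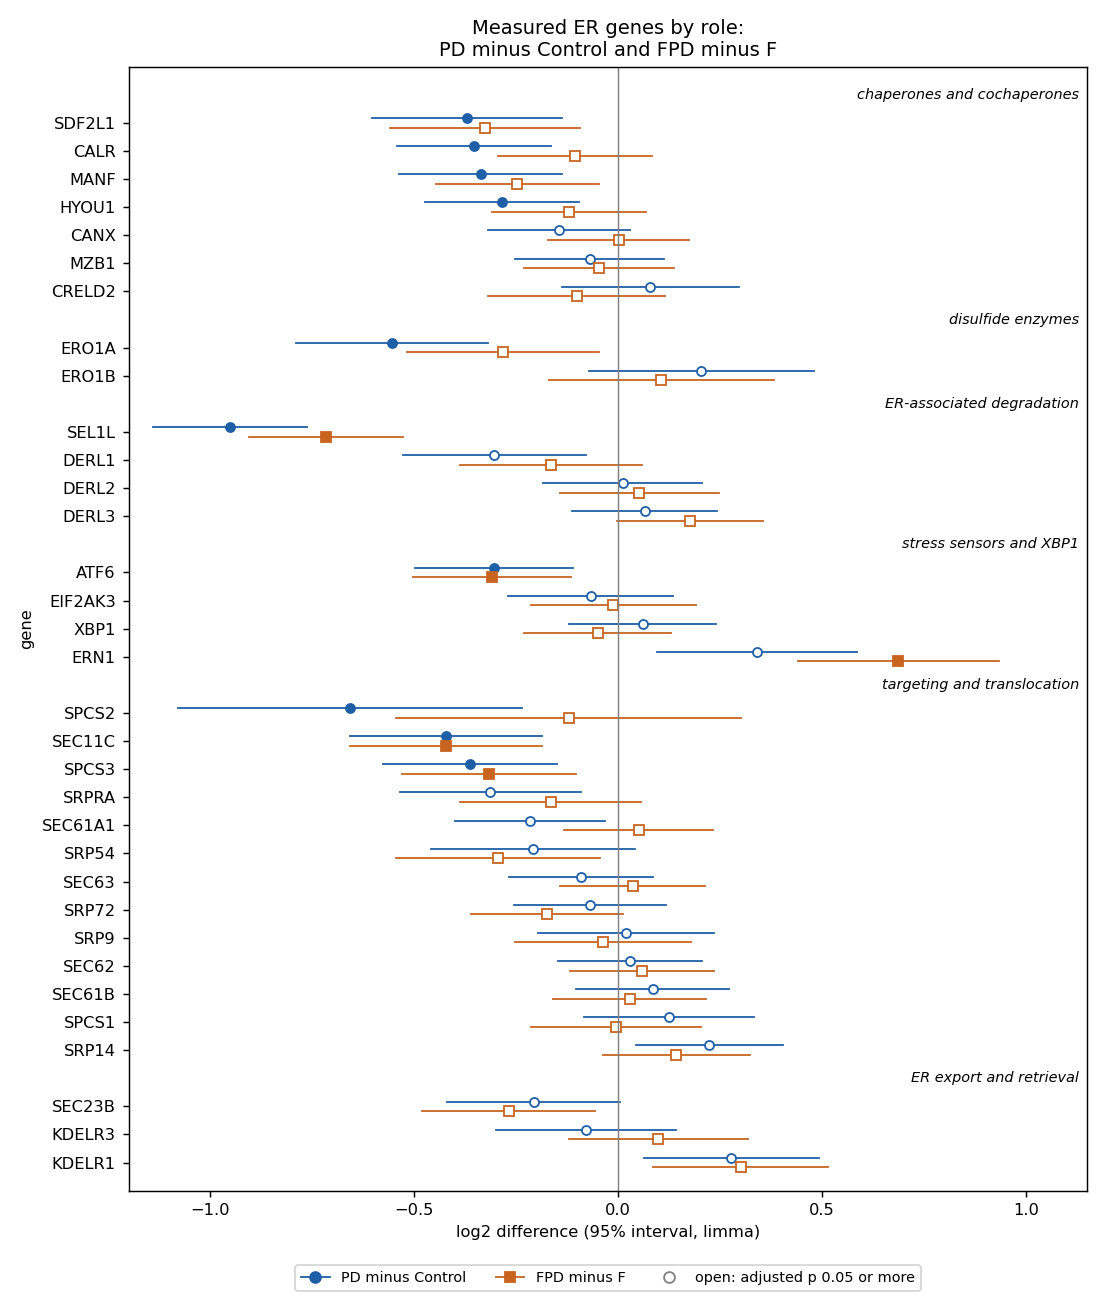
Log2 difference of each measured ER gene (x axis) with its 95% limma interval, grouped by role (y axis): circles are PD minus Control, squares FPD minus F, and filled symbols passed the adjusted p of 0.05. SEL1L lies furthest to the left in both comparisons, at -0.95 and -0.72, and ERN1 furthest to the right, at 0.34 and 0.69.

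SEL1L, the adaptor that holds the ubiquitin ligase SYVN1 and its substrates together in ER-associated degradation, read 9.96, 10.04 and 9.99 on the Control arrays, 9.17, 8.99 and 8.98 on the PD arrays, 9.14, 9.16 and 9.31 on the FPD arrays and 9.87, 9.93 and 9.96 on the F arrays. All 6 arrays with pomalidomide lay below all 6 without it, with a gap wider than the range of either side. In PD it was 1.93-fold lower than in Control (log2 difference -0.95, SE 0.09, limma adjusted p = 2.98e-06). The derlins, which form the channel through which misfolded proteins leave the ER, were not called. DERL1 differed by -0.30 (limma adjusted p = 0.0654), DERL2 by 0.01 and DERL3 by 0.06, and the 3 PD values of DERL3 (9.41, 9.38 and 9.44) lay just above the 3 Control values (9.37, 9.33 and 9.33).

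CALR, the lectin chaperone calreticulin, read 12.27, 12.22 and 12.25 in Control and 11.76, 11.89 and 12.02 in PD. All PD arrays were lower, and their spread (SD 0.13) was wider than that of Control (SD 0.03). It fell by 0.35 (SE 0.09, limma adjusted p = 0.0115), a call lost without PD replicate 1, the lowest array (0.0599). CANX, its membrane-bound relative calnexin, moved less: 11.05, 11.10 and 11.04 in Control against 10.87, 10.88 and 11.00 in PD. These groups did not overlap either, and the difference of -0.14 was not called (limma adjusted p = 0.292).

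SDF2L1, a partner of ER-resident DNAJ proteins, read 7.53, 7.64 and 7.51 in Control and 7.04, 7.40 and 7.14 in PD, where all values were lower (-0.37, SE 0.11, limma adjusted p = 0.0293). The call was lost without any Control array or PD replicate 1 or 3 (adjusted p 0.0513 to 0.125). MANF, a cofactor of the HSP70 chaperone HSPA5 that is also secreted, read 7.001, 6.96 and 6.86 in Control and 6.51, 6.68 and 6.62 in PD, again without overlap (-0.34, SE 0.09, limma adjusted p = 0.0219). Its call was lost without Control replicate 1 or 2 or PD replicate 1 (adjusted p 0.0651 to 0.0863). HYOU1, an HSP110-type nucleotide exchange factor, went from 10.10, 9.98 and 10.10 to 9.83, 9.67 and 9.84 (-0.28, SE 0.09, limma adjusted p = 0.0399). Its direction rests on 1 of 2 rows: the other row lay at 5.81 in Control and differed by 0.30 (limma adjusted p = 0.480 over all rows), and the mean of both differed by 0.0084 (limma adjusted p = 0.978). Without Control replicate 1 or 3 or any PD array the call was also lost (adjusted p 0.0543 to 0.156). MZB1, a plasma cell cochaperone of immunoglobulin assembly, lay at 11.15 to 11.29 in Control and 11.10 to 11.19 in PD (-0.07, limma adjusted p = 0.688). CRELD2, which encodes a secreted ER stress response protein, read 6.23, 6.28 and 5.88 in Control and 6.20, 6.19 and 6.23 in PD (0.08, limma adjusted p = 0.709), so neither gene separated the groups.

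ERO1A, the oxidase that drives disulfide formation, read 8.26, 8.45 and 8.55 in Control and 7.94, 7.72 and 7.94 in PD. Every PD array lay below every Control array, and ERO1A was 1.47-fold lower (log2 difference -0.55, SE 0.11, limma adjusted p = 0.00238), the second call that held without any 1 array. Its paralogue ERO1B lay at 3.69 to 3.95 in Control and 3.81 to 4.25 in PD, a level near the median of all rows at which detection was not shown.

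Of the sensors and XBP1, ATF6 alone was called in PD. It read 10.19, 10.28 and 10.19 in Control and 10.07, 9.85 and 9.82 in PD, all lower (-0.30, SE 0.09, limma adjusted p = 0.0318). The call was lost without any Control array or PD replicate 2 or 3 (adjusted p 0.0595 to 0.118). ERN1 read 8.87, 8.93 and 9.21 in Control and 9.52, 9.21 and 9.29 in PD. All PD arrays lay above the Control arrays, though PD replicate 2 and Control replicate 3 both round to 9.21, and the difference of 0.34 missed the threshold (SE 0.12, limma adjusted p = 0.0599). EIF2AK3 lay at 8.93 to 9.07 in Control and 8.75 to 9.03 in PD (-0.07, limma adjusted p = 0.738). XBP1, the transcription factor whose mRNA IRE1 splices, read 10.78, 10.88 and 10.74 in Control and 10.91, 10.81 and 10.86 in PD. Its groups overlapped, and the 95% interval of its difference ran from -0.12 to 0.24 (0.06, limma adjusted p = 0.738). The values are for all XBP1 transcripts of the row, and spliced and unspliced forms were not analysed here.

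**Figure D2:**
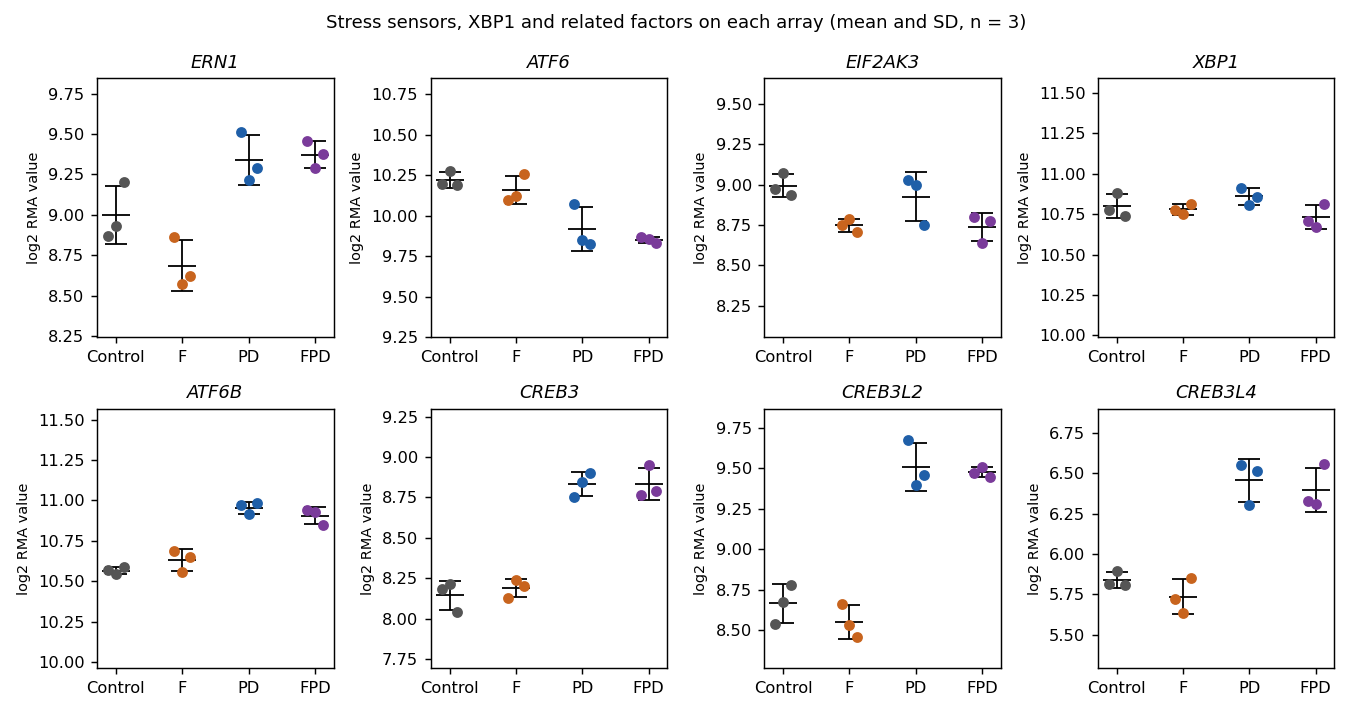
Log2 RMA values (y axis) on each of the 12 arrays for the sensors, XBP1 and 4 related factors, by group (x axis), with the group mean and SD (n = 3). ATF6 lies lower in PD and FPD than in Control, while ATF6B, CREB3, CREB3L2 and CREB3L4 lie higher there on every array.

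Of 5 measured genes of the signal peptidase, which trims chains as they enter the ER, 3 fell (beside 8.63% of all genes) and 2 were not called. SEC11A is counted here though it is not among the 33 genes. SEC11C, a catalytic subunit of the signal peptidase, read 10.57, 10.59 and 10.42 in Control and 9.94, 10.11 and 10.27 in PD, without overlap (-0.42, SE 0.11, limma adjusted p = 0.015). SPCS3, an accessory subunit of the same enzyme, read 10.13, 10.35 and 10.39 in Control and 9.99, 9.85 and 9.94 in PD, again without overlap (-0.36, SE 0.10, limma adjusted p = 0.0212). Both calls were lost without some arrays: SEC11C without Control replicate 1 or 2 or PD replicate 1 (adjusted p 0.0505 to 0.075), SPCS3 without Control replicate 2 or 3 or PD replicate 2 (0.0759 to 0.0878). SPCS2 read 6.63, 6.44 and 7.49 in Control and 6.45, 6.14 and 6.003 in PD, where the groups overlapped. Its difference of -0.66 (SE 0.20, limma adjusted p = 0.0336) leaned on Control replicate 3 and was -0.34 without that array (limma adjusted p = 0.131), and the call was also lost without PD replicate 2 or 3 (0.0949 and 0.125). SPCS1 differed by 0.12 (limma adjusted p = 0.484), and SEC11A, the other catalytic subunit, by 0.17 (limma adjusted p = 0.279). In FPD against Control SEC11A was higher by 0.37 (limma adjusted p = 0.0155), while SEC11C fell. Leaving out Control replicate 1 or FPD replicate 2 or 3 ended the SEC11A call (0.0525 to 0.0734).

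None of the 9 channel and targeting genes was called by limma in PD (beside 15.5% of all genes). SEC61A1, SRPRA and SRP14 had an unadjusted p under 0.05 (beside 26.5% of all genes). SEC61A1, the pore of the channel, read 11.29, 11.26 and 11.41 in Control and 11.15, 11.04 and 11.12 in PD, all lower, and its difference of -0.22 was not called (limma adjusted p = 0.111). SRPRA, a subunit of the receptor for the signal recognition particle, lay wholly lower in PD and just outside the threshold (-0.31, limma adjusted p = 0.0541). SRP14, which helps pause translation, differed by 0.22 (limma adjusted p = 0.0936), and the remaining 6, SEC61B, SEC62, SEC63, SRP9, SRP54 and SRP72, ranged from -0.21 for SRP54 to 0.08 for SEC61B.

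KDELR1, a receptor that returns escaped chaperones from the Golgi, read 11.06, 11.17 and 10.97 in Control and 11.39, 11.23 and 11.42 in PD. The PD arrays were all higher, and the difference of 0.28 missed the threshold (limma adjusted p = 0.0801). KDELR3 lay at 4.13 to 4.25 in Control, near the array medians, and differed by -0.08. SEC23B, a subunit of the coat of vesicles that leave the ER, differed by -0.21 (limma adjusted p = 0.201).

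**Figure D3:**
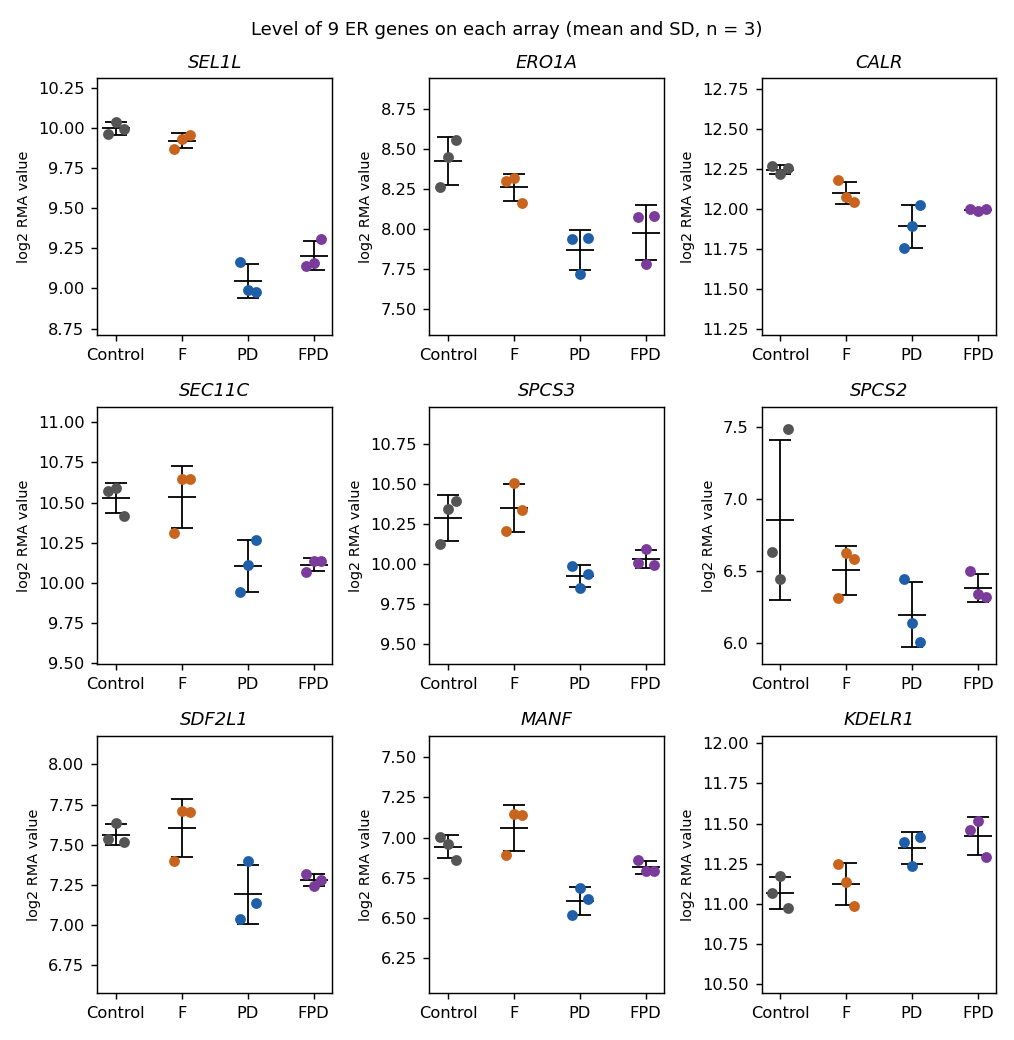
Log2 RMA values (y axis) of 9 ER genes on each of the 12 arrays by group (x axis), with the group mean and SD (n = 3). SEL1L and ERO1A lie lower on the PD and FPD arrays than on the Control arrays, SPCS2 in Control depends on 1 array at 7.49, and KDELR1 lies higher in PD and FPD than in Control.

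FPD was compared with Control to measure all 3 drugs together. Here 5 of the 33 genes fell (15.2%, beside 5.89% of all genes tested) and 2 rose (6.06%, beside 7.26%), and the median difference was -0.09 (-0.02 over all genes). The FPD arrays lay wholly below the Control arrays for 15 genes (15.5% of all genes) and wholly above for 5 (14.4%). SEL1L fell by 0.79 (SE 0.09, limma adjusted p = 1.9e-05) and ATF6 by 0.37 (SE 0.09, limma adjusted p = 0.0123), and both passed without any 1 array. ATF6 read 9.87, 9.85 and 9.83 in FPD, below every Control array. ERO1A read 8.07, 7.78 and 8.08 and fell by 0.44 (limma adjusted p = 0.0129), which no longer passed when Control replicate 3 (0.0582) or FPD replicate 2 (0.0752) was left out. SEC11C read 10.07, 10.14 and 10.13 and fell by 0.42 (limma adjusted p = 0.019), which was lost without Control replicate 1 or 2 or FPD replicate 1 (0.0658 to 0.070). SEC23B went from 9.90, 9.87 and 9.60 to 9.36, 9.39 and 9.55, without overlap, and fell by 0.36 (limma adjusted p = 0.0254). That call was lost without Control replicate 1 or 2 or FPD replicate 1 or 2 (0.0879 to 0.112).

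The genes that rose in FPD were ERN1 and KDELR1. ERN1 read 9.46, 9.29 and 9.37 in FPD, above every Control array, and rose by 0.37 (SE 0.12, limma adjusted p = 0.044). Only without Control replicate 3 did the call hold. It was lost without Control replicate 1 or 2 or any FPD array (adjusted p 0.0626 to 0.174), and with the arrays centred on their medians (0.0559), where 1 gene was higher and 5 lower. KDELR1 read 11.46, 11.52 and 11.29 in FPD, also without overlap, and rose by 0.35 (SE 0.10, limma adjusted p = 0.0281), which no longer passed when Control replicate 1 or 3 or FPD replicate 1 or 2 was left out (0.0752 to 0.116). Without Control replicate 1, FPD replicate 1 or FPD replicate 2 no gene was called higher and 3 were called lower. Of the chaperones that fell in PD, none was called in FPD. CALR differed by -0.25 (limma adjusted p = 0.0778), SDF2L1 by -0.28 (0.112), HYOU1 by -0.20 (0.174) and MANF by -0.13 (0.468). These values use the same Control arrays as the PD values, and the difference between FPD and PD has its own test below.

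FPD differs from F by pomalidomide alone if F had dexamethasone, and by pomalidomide with dexamethasone if F had filanesib alone. The comparison of FPD with F shares no array with that of PD with Control. In it 4 of the 33 genes fell (12.1%, beside 6.64% of all genes tested) and 1 rose (3.03%, beside 7.5%), where 14.1% of all genes were called in either direction. The groups did not overlap for 12 genes that were lower (15.2% of all genes) and 4 that were higher (15.1%). ERN1 rose from 8.86, 8.57 and 8.62 in F to 9.46, 9.29 and 9.37 in FPD, without overlap and 1.61-fold (log2 difference 0.69, SE 0.12, limma adjusted p = 0.000684). SEL1L fell by 0.72 (SE 0.09, limma adjusted p = 4.33e-05). Both passed without any 1 array. The median difference was -0.05, beside -0.01 over all genes.

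SEC11C (-0.42, limma adjusted p = 0.0165), ATF6 (-0.31, limma adjusted p = 0.0322) and SPCS3 (-0.32, limma adjusted p = 0.0466) fell too, and all 3 calls depended on single arrays. SEC11C, at 10.31, 10.65 and 10.65 in F, was lost without F replicate 2 or 3 or FPD replicate 1 (adjusted p 0.0625 to 0.0814). ATF6, at 10.10, 10.12 and 10.26 in F, was lost without F replicate 2 or 3 or any FPD array (0.0677 to 0.130). SPCS3, at 10.21, 10.50 and 10.34 in F and 10.01, 10.10 and 9.99 in FPD, was lost under the same conditions (0.0708 to 0.214). With the arrays quantile normalized again, ATF6 (0.076) and SPCS3 (0.103) were both lost, leaving 1 gene higher and 2 lower. Without F replicate 1 the fit called 7 lower and 2 higher, without F replicate 2 or 3 or FPD replicate 1 it called 1 lower, and without FPD replicate 2 or 3 it called 2 lower.

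Across the 33 genes the differences of PD from Control and of FPD from F had the same sign in 25 (75.8%), beside 67.5% of all genes tested, and correlated at r = 0.829 over genes, which share the arrays and are not independent replicates (r = 0.781 over all 14884 genes). All 10 genes that fell in PD were negative in FPD against F, and 4 of them (40%) fell again, beside 55.8% of the 1284 genes that fell over the whole table. Those 4 were SEL1L, ATF6, SPCS3 and SEC11C. Of the 6 that did not, SPCS2 was at -0.12 here against -0.66 in PD, ERO1A at -0.28 against -0.55 and CALR at -0.10 against -0.35; the difference between the comparisons was not called for any of them.

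**Figure D4:**
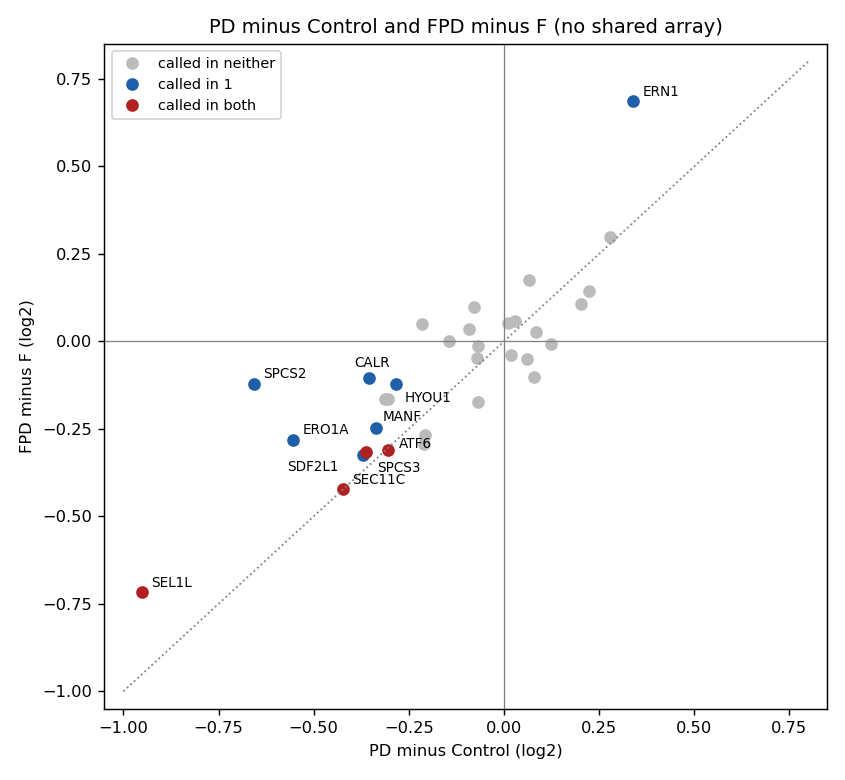
Log2 difference of PD from Control (x axis) against that of FPD from F (y axis) for the 33 ER genes, with points coloured by whether they passed the adjusted p of 0.05 in both, in 1 or in neither comparison and a dotted line of equal values. Of the 10 genes that fell in PD, all lie below 0 on both axes, and 4 passed in both.

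No ER gene was called for the F group itself. Against Control, limma called 0 of 33 genes, beside 0.00672% of all genes higher and 0% lower, and 2 had an unadjusted p under 0.05 (beside 6.01% of all genes). These were ERN1 (-0.31, limma adjusted p = 0.702), whose F arrays all lay below the Control arrays, the closest pair at 8.86 and 8.87, and EIF2AK3, which read 8.97, 9.07 and 8.93 in Control and 8.75, 8.79 and 8.71 in F (-0.24, limma adjusted p = 0.729). In FPD EIF2AK3 read 8.80, 8.64 and 8.77, again below all Control arrays (-0.26, limma adjusted p = 0.096). The median difference of F from Control was -0.04, and the F arrays lay wholly below the Control arrays for 8 genes (5.15% of all genes) and wholly above for 0 (4.84%).

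Adding filanesib to the pair changed no ER gene at the threshold either. FPD against PD gave 0 calls by limma, beside 0.0336% of all genes higher and 0% lower, and 1 gene with an unadjusted p under 0.05 (beside 8.62%). That gene was MANF, which read 6.86, 6.79 and 6.79 in FPD, all above the PD arrays (0.21, 95% interval 0.01 to 0.41, limma adjusted p = 0.554). For SEL1L the difference was 0.16 with an interval of -0.03 to 0.35, and for ERN1 0.03 with an interval of -0.21 to 0.28, so changes of that size in either gene were not resolved with 3 arrays a group. The FPD arrays lay wholly above the PD arrays for 3 genes (8.1% of all genes) and wholly below for 2 (6.35%). The departure from additivity is the amount by which FPD differs from the sum of the PD and F changes. If F had dexamethasone, as its source and treatment labels list, that sum counts dexamethasone in both terms. The departure was called for no ER gene by limma (0% of all genes) and had an unadjusted p under 0.05 for SEC61A1 alone (beside 5.6%). The highest values were those of SPCS2 (0.54, SE 0.28) and ERN1 (0.35, SE 0.16), and the lowest those of CRELD2 (-0.18, SE 0.14) and SPCS1 (-0.13, SE 0.14), with limma adjusted p of 0.888 for the first pair and 0.896 and 0.918 for the second. Without Control replicate 3 the value of SPCS2 was 0.22 and that of CRELD2 -0.06. The rise of ERN1 in FPD over F was thus not shown to differ from its value in PD over Control.

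Calls did not follow the printed promoter elements one for one. Of the 7 genes with an element 3 fell in PD (CALR, SDF2L1 and HYOU1), and of the 22 without one 7 fell, SEL1L, ERO1A and ATF6 among them. Over all genes tested 8.63% fell. Of these calls only those of SEL1L and ERO1A held without any 1 array, so neither count is stable. The median difference in PD was -0.14 for the genes with an element and -0.09 for those without. CANX, CRELD2, ERO1B and XBP1, whose windows hold the same classical pattern as that of CALR, were not called in any comparison.

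Beyond the 33 genes, 127 of 192 further listed genes of the same pathways were measured, and in PD 12 rose (9.45%, beside 6.84% of all genes) and 16 fell (12.6%, beside 8.63%), with a median of -0.01. A second quantile normalization gave 16 higher and 15 lower, and the count of lower genes was 10 without Control replicate 2 and 9 without PD replicate 2. In FPD against Control 13 rose (10.2%, beside 7.26%) and 6 fell (4.72%, beside 5.89%), with a median of 0.01. In FPD against F 15 rose (11.8%, beside 7.5%) and 14 fell (11%, beside 6.64%), where the lower genes numbered 8 without F replicate 2, 5 without F replicate 3, 9 without FPD replicate 1 and 6 without FPD replicate 3. In PD 4 of 14 further stress response genes rose (28.6%, beside 6.84% of all genes) and 1 fell (7.14%, beside 8.63%). The latter was ATF3, at -0.36 (limma adjusted p = 0.0344), whose call was lost without Control replicate 1 or 2 or PD replicate 1 or 2 (0.103 to 0.115) and with the replicate block (0.0536). The 4 that rose were membrane-anchored transcription factors that, like ATF6, are cut free in the Golgi. Their list was chosen with earlier results of these data known and left out CREB3L1 and CREB3L3. The share of 28.6% therefore describes that list only. The other further lists were also chosen with those results known, and their shares describe those lists only. CREB3L2 read 8.54, 8.68 and 8.78 in Control and 9.67, 9.39 and 9.46 in PD, and rose 1.80-fold (log2 difference 0.84, SE 0.10, limma adjusted p = 2.74e-05). CREB3 rose by 0.69 (limma adjusted p = 7.28e-05) and CREB3L4 by 0.62 (limma adjusted p = 0.000507). ATF6B, the paralogue of ATF6, went from 10.57, 10.54 and 10.59 to 10.97, 10.91 and 10.98, a rise of 0.39 (limma adjusted p = 0.00337) where ATF6 fell by 0.30. All 4 factors rose in FPD against Control and against F too, and CREB3, CREB3L2 and CREB3L4 did so in each fit tried. For ATF6B against F (0.28, limma adjusted p = 0.0331) the call was lost without F replicate 2 or 3 or any FPD array (0.0527 to 0.138). CREB3L1 (-0.15) and CREB3L3 (-0.17), looked up after these values were seen, were not called in PD.

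Degradation genes outside the 33 went both ways in PD, with 3 of 27 higher (11.1%, beside 6.84% of all genes) and 5 lower (18.5%, beside 8.63%). UBE2G2, a ubiquitin-conjugating enzyme of the pathway that SEL1L serves, fell by 0.51 (limma adjusted p = 0.00908). VCP, the ATPase that extracts substrates from the membrane, fell by 0.35 (limma adjusted p = 0.00906), its cofactor NPLOC4 by 0.35 (limma adjusted p = 0.0146, lost without Control replicate 3 at 0.0578 or PD replicate 2 at 0.0507), ERLIN1 by 0.49 and UFSP2, a protease that matures the modifier UFM1, by 0.45. HERPUD2 rose by 0.71 (limma adjusted p = 0.000106) and UBXN6, another VCP cofactor, by 0.67 (limma adjusted p = 7.09e-05). HERPUD2, UBXN6, ERLIN1 and UFSP2 were called in the same directions in FPD against Control and against F, though ERLIN1 in FPD against Control was lost without Control replicate 1 or 2 or FPD replicate 1 or 3 (limma adjusted p 0.069 to 0.108). VCP and NPLOC4 were called in neither of these comparisons. UBE2G2 was called only against F, and that call was lost without F replicate 2 or 3 or FPD replicate 2 or 3 (limma adjusted p 0.0583 to 0.0902).

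Among 16 further folding genes 2 rose in PD (12.5%, beside 6.84%) and 4 fell (25%, beside 8.63%). Of the 4 that fell, only TMX3 held without any 1 array. TXNDC11 was lost without each of the 6 arrays in turn (limma adjusted p 0.059 to 0.0815), and QSOX2 and CLGN without some of them (0.0575 to 0.137). ERP44, which retrieves unfinished disulfide-bonded proteins, rose by 0.56 in PD (limma adjusted p = 0.000895) while TMX3, a membrane-bound disulfide isomerase, fell by 0.47 (limma adjusted p = 0.00476). CDNF, the paralogue of MANF, rose by 0.66 from a Control level of 4.28 near the array medians (limma adjusted p = 0.000252). Of 30 coat, export and retrieval genes 2 rose (6.67%) and 3 fell (10%), shares near those of all genes tested (6.84% and 8.63%). Among them were TMED5, a cargo receptor of the p24 family, which read 8.27, 8.47 and 8.24 in Control and 7.78, 7.78 and 7.75 in PD (limma adjusted p = 0.000541), and STX5, a membrane fusion protein of ER to Golgi traffic, which rose by 0.48 (limma adjusted p = 0.00173). In the 19 genes of N-glycan assembly 1 fell (5.26%, beside 8.63%) and 0 rose (beside 6.84%). In F against Control and in FPD against PD none of the 127 was called by limma. At an unadjusted p under 0.05 there were 4 and 11, beside 6.01% and 8.62% of all genes.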

How the data were processed

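The values are deposited log2 expression values from the authors; the submitters' processing notes name RMA and Affymetrix Expression Console as tools, and versions, further settings and the genome build are not given in the sources used here. RMA compresses low signals, so differences of weakly expressed genes are understated. Of 53617 rows, 16098 had 1 gene symbol in the platform annotation and 37519 none; 14884 genes were tested, each by its row with the highest mean. HYOU1 and SEC62 had 2 rows.

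The fit, with lmFit and eBayes of limma 3.58.1 (R 4.3.3), held all 12 arrays (4 group means, 8 residual degrees of freedom, two-sided), with Benjamini-Hochberg adjustment over all genes, and the method was tested on simulated data. The simulated noise was independent between arrays, so that test cannot speak to cultures or batches that arrays may share. "Rose", "fell" and "called" mean an adjusted p under 0.05. Groups, doses and replicate numbers came from the labels; there is no batch in them. Deviations of arrays with the same replicate number correlated at -0.256 to 0.158 (18 pairs, 5 above 0.1). Pairs of different numbers were not compared, so these values cannot exclude shared cultures or batches. The main fit did not pair the arrays. Other scalings, gene filters, row choices, samples, variance models, the replicate block and leaving out each array were tried.

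The genes and the further pathway lists were chosen with earlier results of these data known. Values per array are given for members fixed by name and for the 5 highest and 5 lowest called members of each comparison. Promoters and motifs came from RefSeq windows of GRCh38.p14. With 3 arrays a group, precision is limited by their number.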

Additional observations from a re-analysis of the deposited data

How the results depend on the processing

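Sensitivity was limited by 3 arrays a group. SEL1L and ERO1A in PD against Control, SEL1L and ATF6 in FPD against Control, and SEL1L and ERN1 in FPD against F passed under all alternatives run, and HYOU1 in PD, from the mean of its rows, was the only called gene that reversed (0.0084). Of 1555 values not called, 76 changed sign. Quantile normalizing again gave 2 ER genes higher in PD, 2 lower in FPD against F, and 1 gene lower in FPD against PD over all genes. Centring the arrays gave a median of -0.12 for ER genes in PD and 1 higher in FPD against Control. Testing only genes above the median level gave 2 higher in PD with a median of -0.14, 2 higher in FPD against F with a median of -0.10, and, over all genes, 0 higher in F and 19 higher and 1 lower in FPD against PD. Averaging rows gave 0 genes higher in FPD against PD. Testing all rows gave 4 ER genes lower in PD, 0 higher and 3 lower in FPD against Control, and 1 lower in FPD against F, with 716 and 580 of all genes higher and lower in FPD against Control and 741 and 641 in FPD against F. Fitting only the compared arrays gave 6 ER genes lower in PD and 8 of all genes higher in FPD against PD. Trend and robust settings gave 2 ER genes higher in PD, 2 higher in FPD against F, 4 of all genes higher in F, and 28 higher and 3 lower in FPD against PD. With the replicate block, although a pairing by number was not shown, 11 ER genes were lower in PD and 3 in FPD against F. Over all genes it gave 0 higher in F and 0 in FPD against PD. Leaving out each array in turn gave 0 to 1 ER genes higher and 5 to 6 lower in PD; 0 to 1 higher and 3 to 5 lower in FPD against Control, with a median of -0.125 to -0.0915; and 1 to 2 higher and 1 to 7 lower in FPD against F, with a median of -0.0888 to -0.0429. Over all genes it gave 0 to 2 higher in F, 0 to 11 higher and 0 to 4 lower in FPD against PD (the highest without PD replicate 1), and 657 (without F replicate 2) to 985 lower in FPD against F. The median departure from additivity ranged from 0.0069 to 0.093. The alternatives for the further pathway genes were chosen after seeing the data. Unless a setting itself tests fewer arrays or other genes, the cause was not tested.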
